A study of Mus musculus with 2 samples.

Results

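ERV3 is the name that RepBase, a collection of repeat consensus sequences, gives to the class of endogenous retroviruses also known as ERVL. The members described here are the rows of the count matrix that are no gene and carry ERV3 as the class in their name. There were 129 such rows among 1182 repeat rows and 51868 rows in all, and 48 of the 129 had at least 1 UMI (unique molecular identifier, a tag that counts each captured RNA molecule once). Single-cell RNA of dissociated testis tissue came from 2 C57Bl/6J Crl mice of 8 weeks, wild-type per the study's methods, with 1 droplet library per mouse (10X Chromium 3' chemistry, version 2). Per the same methods, a part of the testis was used and the suspension was strained, in part to keep somatic cells few. The labels name no transgene or treatment, so the comparisons are between cell classes within each testis and between the mice.

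ERV3 elements entered mammalian genomes as retroviruses and now lie there as copies in every state of decay. A complete copy has an internal part, which holds what is left of the viral genes, between 2 long terminal repeats (LTRs), which hold the promoter and the end of the transcript. In the mouse, the class includes MERVL with its MT2 LTRs, a retrovirus known for its transcription in the 2-cell embryo, and the MaLR elements, which lack viral genes of their own and are copied with the help of others. The MaLR families ORR1 and MT are rodent families, MLT and MST are older families shared with other mammals, and LTRs of the MT and MT2 families are known as promoters of chimaeric gene transcripts in oocytes and early embryos.

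Clusters of cells were built from gene rows only, so gene rows tested below helped to define the cell classes, while no ERV3 row did. They held 164 early spermatocyte-like cells (11 of 14 markers of the class were at 1.5 times the level of all cells or more), 527 pachytene or later spermatocyte-like cells (6 of 14), 451 round spermatid-like cells (11 of 12) and 705 elongating or condensing spermatid-like cells in 2 clusters of 505 and 200 cells (12 of 12 in each). A cluster of 687 cells remained without a name, since 1 of 12 markers of its best class, round spermatid, reached that level. It was led by Ssxb genes, of which Ssxb1 is among those 12 markers. The named classes are called early, pachytene, round and elongating in what follows, the names standing for cells that are like these. The clusters of 7 Sertoli-like, 6 spermatogonium-like and 5 Leydig-like cells were too small for a test. Mouse 1 gave 1237 cells with 27450497 UMIs and mouse 2 gave 1315 cells with 30302332 UMIs, and a cell held between 7114 and 154431 UMIs. Intervals given below are exact 95% intervals that cover counting error only.

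The ERV3 rows together held 20259 UMIs, or 0.0351% of all UMIs. As CPM (UMIs scaled so that the rows of a mouse or class sum to 1e6), this was 340.6 CPM in mouse 1 (interval 333.8 to 347.6) and 360.0 CPM in mouse 2 (353.2 to 366.8). The mean was 350.3 ± 13.7 CPM (SD, n = 2). The ERV1 class, with 86 rows, held 17783 UMIs and the ERV2 class, with 255 rows, held 85403. At least 1 ERV3 UMI was found in 2395 of 2552 cells. The median cell held 6 of them and the highest cell 66.

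UMIs were concentrated in few rows. The 24 rows with at least 100 UMIs held 97.3% of all ERV3 UMIs. A further 12 rows had 10 to 99 UMIs and 12 had 1 to 9. ORR1A2_LTR, an LTR of the ORR1A group, held 4171 UMIs in 1758 cells, followed by ORR1A0 with 2156, the internal row ORR1AI with 1850, MTB_Mm_LTR with 1661, MTA_Mm_LTR with 1164 and ORR1A3_LTR with 1084. By family, the 22 ORR1 rows held 11839 UMIs (58.4% of the class), the 13 rows of the MT family proper (MTA to MTE) 5782 (28.5%) and the 7 MERVL and MT2 rows 1743 (8.60%). The 56 rows outside these and the MLT and MST families held 895 UMIs (4.42%). Rows named as internal parts numbered 18 and held 3401 UMIs (16.8%). These are counts of UMIs on consensus sequences of unequal length and copy number, so they do not rank the activity of single copies. A UMI on such a row may come from a transcript of the element itself or from a gene transcript that holds a copy, and the counts cannot tell these apart.

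Each row name closes with a taxon, the group of animals under which the entry is listed. Parts of 1 element can be listed under different taxa, such as RMER15 under Mus and RMER15-int under Muridae. The taxon is therefore not a measure of which animals share the element. Of 22 rows named Mus, 19 had a UMI, as had 9 of 10 rows named Muridae, 17 of 22 named Rodentia, both rows named Sciurognathi and 1 of 3 named Murinae. Rows named Mus held 38.5% of the ERV3 UMIs, rows named Muridae 34.4% and rows named Rodentia 24.9%. None of the 60 rows named Eutheria and none of the 10 named Mammalia had a UMI in either mouse. All 29 MLT rows and both MST rows belong to these. For a single row, 0 of 57752829 UMIs allows up to 0.0519 CPM over all cells, taking 3 counts as the limit that a count of 0 allows. The same split was seen outside the class, where 0 of 27 ERV1 rows and 0 of 2 ERV2 rows named Eutheria or Mammalia had a UMI, and 4 of 304 such rows had one over all repeats. Whether the alignment could place reads from such old and diverged copies on a consensus was not tested.

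**Figure D1:**
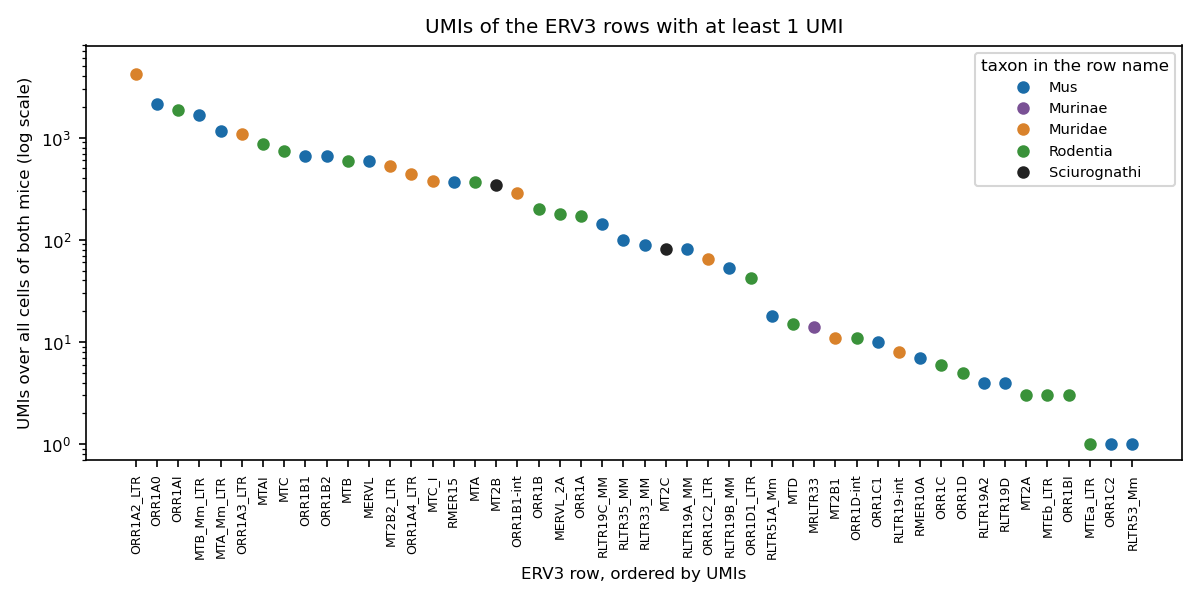
UMIs of the 48 ERV3 rows with at least 1 UMI (log scale), summed over all cells of both mice and ordered by UMIs, with the colour giving the taxon in the row name. The row at the left is ORR1A2_LTR with 4171 UMIs, and no row named Eutheria or Mammalia is among the 48.

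Along spermatogenesis, ERV3 rows took the largest share of UMIs among the germ cell classes in the early class, with 590.0 CPM in mouse 1 (interval 545.3 to 637.4) and 621.9 CPM in mouse 2 (590.9 to 654.1). The pachytene class had 358.0 and 374.7 CPM, the unnamed cluster 365.7 and 360.2 CPM, and the round class 343.6 and 353.5 CPM. These 3 groups of cells lay within a narrow range, and the order of the unnamed cluster and the pachytene class differed between the mice. The elongating class had 225.3 and 239.1 CPM. Both mice gave the same order of the 4 named classes. Within each mouse the intervals of classes next to each other among these 4 were separate, except for pachytene and round in mouse 1 and in mouse 2. In the ordering of cells described below, bins of only unnamed cells lay between bins of mostly pachytene and mostly round cells. The step from pachytene to round thus passes over the unnamed cluster, whose interval overlapped those of both classes in each mouse.

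The low value of the last class was that of 1 of its clusters. By mean standardised marker expression, round spermatid came second in the smaller cluster (0.56, against 0.94 for elongating or condensing). In the larger cluster it did not (second was immune, 0.07, against 1.40), and Prm1 was among its leading genes. The 2 clusters may thus be an earlier and a later part of the class, which was not tested. The larger cluster, with the lower median depth (11702 against 23510 UMIs per cell), had 129.2 and 123.1 CPM, while the smaller cluster had 387.3 and 363.8 CPM, above the round class in both mice but with overlapping intervals. In the larger cluster, 77.1% and 74.3% of the cells had an ERV3 UMI, and in the smaller 98.9% and 96.4%. After each cell was thinned to 5000 UMIs, the shares were 47.0% and 45.6% in the larger and 83.1% and 74.8% in the smaller cluster, against 96.2% and 94.6% in the early and 78.5% and 80.4% in the round class. No cell class known to lack these RNAs was available, so the part that free RNA in the droplets may add was not measured.

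CPM is a share of the RNA of a class, and this share depends on the other RNAs. In the elongating class, 10 rows, led by the protamine and transition protein genes Prm1, Tnp2 and Prm2, took 16.4% of the UMIs, against 4.34% to 5.14% in the other classes. On the CPM scale, the log2 ratio of the summed ERV3 rows was -0.73 ± 0.0071 (SD, n = 2 mice) from early to pachytene, -0.07 ± 0.018 from there to round and -0.59 ± 0.031 from round to elongating. An SD of 2 values is no measure of precision. The early class alone had a counting interval of 545.3 to 637.4 CPM in mouse 1. With TMM scaling, which sets the bulk of the genes equal between classes, these ratios became -0.43 ± 0.16, 0.24 ± 0.030 and 0.28 ± 0.025. For the classes as a whole, the direction of the latter 2 steps thus depended on the scale and only the first was lower on both. Both scales are relative to other RNAs, and neither gives an amount per cell. The median cell of the early class held 11 ERV3 UMIs in mouse 1 and 13 in mouse 2. The corresponding medians were 8 and 9 in pachytene, 7 and 8 in round and 2 and 2 in elongating. In mouse 1, 53 early cells held 644 UMIs and 308 pachytene cells 3738. In mouse 2, 111 early cells held 1506 and 219 pachytene cells 2793. Whether the amount per cell changed was not tested. In the larger elongating cluster alone, the median TMM log2 fold change from round was -0.97 over the tested ERV3 rows, against -0.20 over all rows. The ERV3 sum with TMM scaling was not computed for this cluster. The fold changes of single rows below are on the TMM scale, and the CPM are given beside them.

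**Figure D2:**
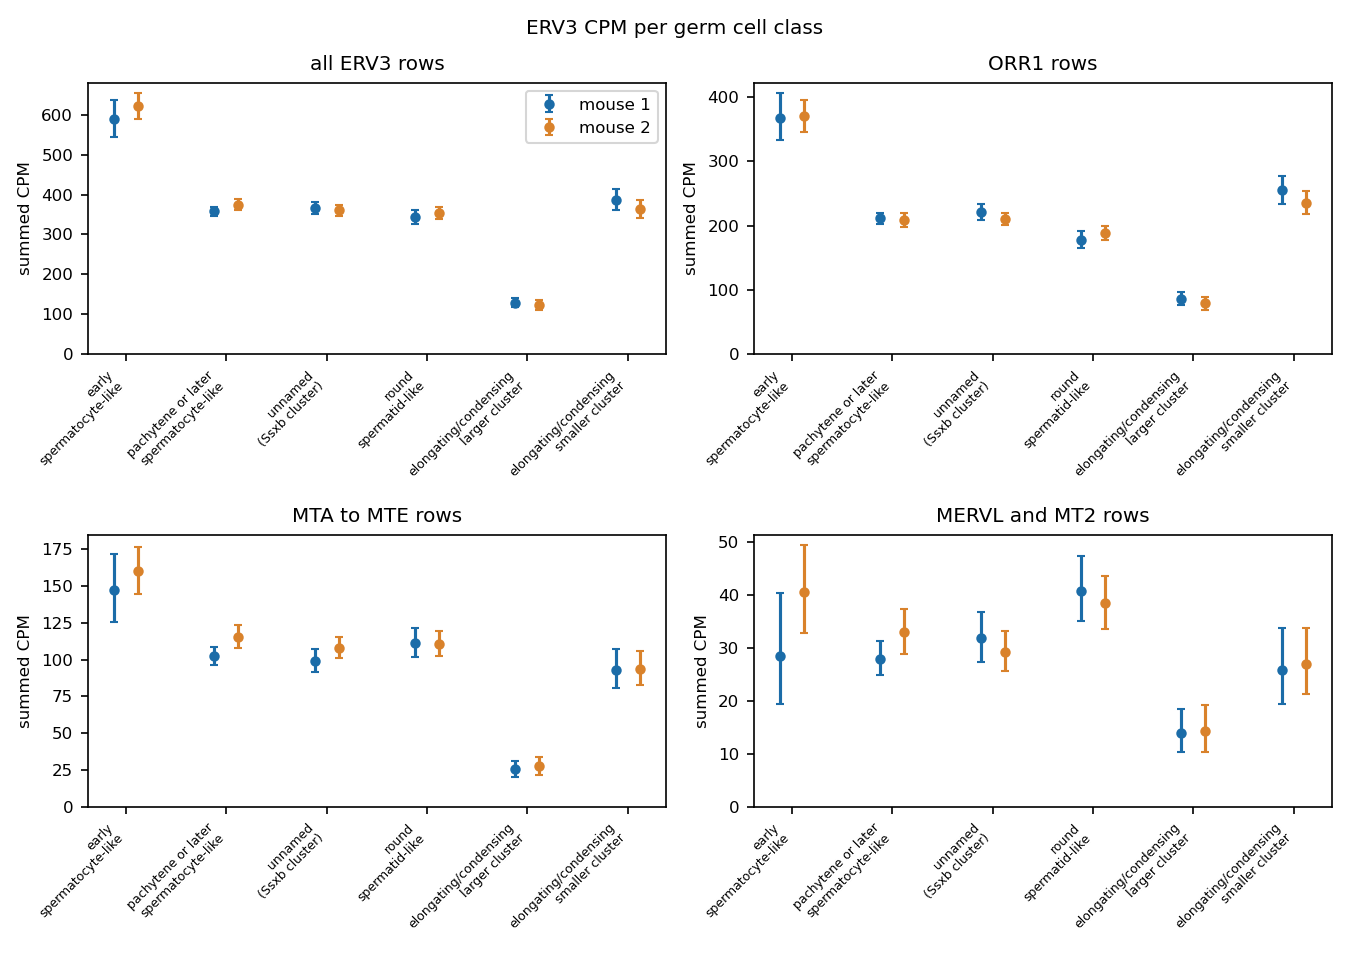
Summed CPM of all ERV3 rows and of the ORR1, MT, and MERVL with MT2 rows in each germ cell class, with the elongating class shown as its 2 clusters. The larger cluster is drawn first, which is not an order of stages. Points are the values of mouse 1 and mouse 2 and bars their exact 95% Poisson intervals. All ERV3 rows together lie at 590.0 and 621.9 CPM in the early class and at 129.2 and 123.1 CPM in the larger elongating cluster, below the round class on the CPM scale, which did not hold in the smaller cluster or, for the class as a whole, with TMM scaling.

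The families followed this course to different degrees. ORR1 rows had 368.3 and 370.0 CPM in the early class of mouse 1 and mouse 2, 211.3 and 208.8 CPM in the pachytene class, 178.1 and 188.6 CPM in round and 149.3 and 154.4 CPM in the elongating class. MT rows went from 147.5 and 160.2 CPM over 102.2 and 115.2 CPM to 111.3 and 110.7 CPM, and ended at 50.6 and 59.3 CPM. MERVL and MT2 rows did not follow the order of the class as a whole. They were highest among these classes in the round class of mouse 1, with 40.8 CPM against 28.4 CPM in the early class. In mouse 2 the corresponding values were 38.3 and 40.5 CPM, and the intervals overlapped in each mouse. The rows outside the named families had 45.8 and 51.2 CPM in the early class and no more than 17.8 CPM in any of the other named germ cell classes.

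Of the 48 rows with a UMI, 29 passed the filter on low counts and were tested with edgeR's quasi-likelihood test on UMIs summed per mouse and class, with Benjamini-Hochberg adjustment over 15005 rows, genes included. A call is an adjusted p under 0.05. The gene rows among all rows tested helped to build the clusters, so the shares of all rows are not independent of the classes. From the early to the pachytene class, 2 of the 29 rows rose and 9 fell, while 25.0% of all rows tested rose and 23.4% fell. The median log2 fold change was -0.40 over the 29 rows and 0.01 over all rows. From the pachytene to the round class, 9 ERV3 rows rose and 6 fell, against 36.9% and 37.4% of all rows, with medians of 0.05 and -0.11. From the round to the elongating class, 4 rose and 5 fell, against 27.0% and 26.0%, with medians of 0.00 and -0.02. In either direction, 37.9%, 51.7% and 31.0% of the 29 rows were called in the 3 steps, against 48.3%, 74.3% and 53.0% of all rows. In all, 22 of the 29 rows were called in at least 1 step. The share of all rows called in at least 1 step was not worked out. It cannot be below the 74.3% of the second step, so the 2 shares are not compared. With 2 mice, all classes shared 1 estimate of the spread.

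**Figure D3:**
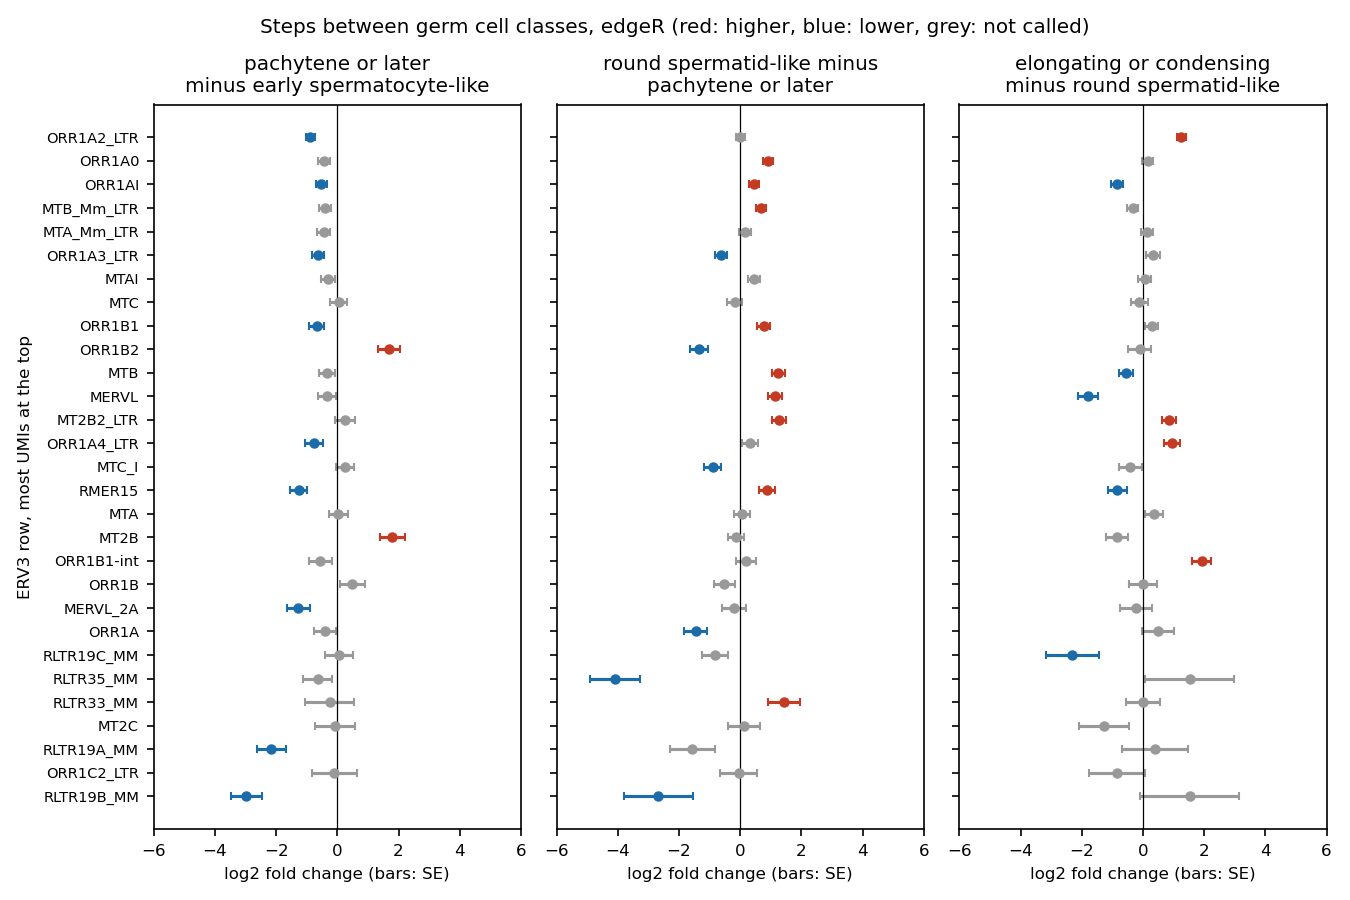
Log2 fold change of the 29 tested ERV3 rows in the 3 steps between germ cell classes (edgeR, TMM scaling, bars are standard errors). Red points are rows that rose, blue points rows that fell and grey points rows without a call, and the rows are ordered by UMIs. In the first step, 9 rows are blue and 2, ORR1B2 and MT2B, are red.

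ORR1A2_LTR was highest in the early class. It had 163.1 and 160.6 CPM in the early class of mouse 1 and mouse 2, 67.4 and 77.3 CPM in the pachytene class, 57.9 and 56.4 CPM in the unnamed cluster, 51.8 and 64.7 CPM in the round and 80.2 and 72.7 CPM in the elongating class. In mouse 2 the elongating value lay below that of the pachytene class, while the values of the round and the elongating class did not overlap. The row fell in the first step by 0.88 on the log2 scale (SE 0.15, adjusted p = 5.07e-05, edgeR) and rose in the last by 1.25 (SE 0.15, adjusted p = 4.34e-07, edgeR). Within the last class, it had 56.2 and 49.7 CPM in the larger and 120.5 and 97.5 CPM in the smaller cluster, and the rise was called for each cluster alone (log2 fold changes of 0.98 and 1.40). On the CPM scale, the larger cluster did not lie above both round values. Of all ERV3 UMIs, this row took 15.1% and 18.3% in the round class, and 43.5% and 40.4% in the larger elongating cluster.

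ORR1A0 was highest in the unnamed cluster, with 52.2 and 53.6 CPM. It had 39.4 and 49.1 CPM in the early, 29.3 and 25.8 CPM in the pachytene and 41.7 and 42.1 CPM in the round class. All values of the pachytene class lay below those of these neighbours, and the rise to the round class was 0.91 (SE 0.17, adjusted p = 7.49e-05, edgeR). The first step, with a log2 fold change of -0.43, was not called (adjusted p = 0.0680, edgeR) but passed with RLE scaling, another set of size factors (adjusted p = 0.00450), and with DESeq2 (adjusted p = 0.00497). Both alternatives lowered the median of all rows in this step (-0.19 and -0.23, against 0.01). This step also passed with a block for the mouse (adjusted p = 0.02585, edgeR) and with the larger (0.0392) or smaller (0.0460) elongating cluster alone. On the TMM scale, the first-step change was -0.02 in mouse 1 and -0.74 in mouse 2. In the last class, its 2 clusters went opposite ways. The larger one had 8.23 and 8.45 CPM and the smaller 45.9 and 50.7 CPM, with log2 fold changes against round of -1.21 (adjusted p = 5.82e-05, edgeR) and 0.72 (adjusted p = 0.00151).

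ORR1AI, the internal part that belongs to ORR1A LTRs, fell, rose and fell again. It had 56.8 and 49.6 CPM in the early class, 28.5 and 31.8 CPM in the pachytene class, 49.0 and 44.5 CPM in the unnamed cluster, 32.0 and 33.6 CPM in round and 8.02 and 11.8 CPM in the elongating class. On the CPM scale, pachytene and round thus lay close together. The unnamed cluster, which the second step passes over, lay above both in each mouse. The log2 fold changes were -0.52 (adjusted p = 0.0208, edgeR), 0.44 (adjusted p = 0.0224) and -0.86 (adjusted p = 7.15e-04). Without the filter on low counts, the first of these was not called (adjusted p = 0.101, edgeR), nor with the unnamed cluster counted as round (adjusted p = 0.0573). In the larger elongating cluster, 1.70 and 1.95 CPM remained, while the LTR row ORR1A2_LTR held 56.2 and 49.7 CPM in the same cells. In the smaller cluster, where it had 18.7 and 22.4 CPM, the fall from round was not called (adjusted p = 0.559).

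The other ORR1A rows were highest in the early class as well. ORR1A3_LTR had 37.6 and 51.2 CPM there, against 25.4 and 23.3 CPM in the pachytene and 12.2 and 13.0 CPM in the round class, and fell in both steps, by 0.63 (adjusted p = 0.0116, edgeR) and by 0.64 (adjusted p = 7.00e-03). The first-step log2 fold change was -0.16 in mouse 1 and -0.94 in mouse 2. The second fall was not called with RLE scaling (adjusted p = 0.0565, edgeR) or DESeq2 (adjusted p = 0.116). ORR1A4_LTR fell by 0.76 in the first step (adjusted p = 0.0334, edgeR) and rose by 0.94 in the last (adjusted p = 6.05e-03), although its CPM of 8.06 and 5.76 in round and 6.95 and 7.41 in the elongating class overlapped. The first fall was not called without doublets (adjusted p = 0.0631, edgeR), without the filter on low counts (0.0864) or with the unnamed cluster counted as round (0.0568), and the rise was called in the smaller cluster and not in the larger one (adjusted p = 0.638). ORR1A had 8.25 and 7.85 CPM in the early, 4.88 and 5.10 CPM in the pachytene and 1.84 and 1.15 CPM in the round class, and its fall between the latter 2 was 1.46 (adjusted p = 1.97e-03, edgeR). These rows have similar sequences, so the split of reads between them is uncertain.

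ORR1B rows differed from this and among themselves. ORR1B2 peaked in the pachytene class, with 27.1 and 15.03 CPM, against 8.25 and 7.85 CPM in the early, 11.3 and 8.30 CPM in the unnamed and 7.83 and 5.92 CPM in the round class. Both mice were highest in the pachytene class. It rose by 1.69 (SE 0.35, adjusted p = 4.17e-04, edgeR) and then fell by 1.34 (SE 0.29, adjusted p = 2.79e-04). ORR1B1 showed the reverse, with 21.1 and 18.2 CPM in the early, 10.7 and 8.99 CPM in the pachytene and 13.6 and 13.7 CPM in the round class. Its log2 fold changes in these steps were -0.67 (adjusted p = 0.0221, edgeR, and 0.0909 without the filter on low counts) and 0.77 (adjusted p = 2.25e-03). The internal row ORR1B1-int rose in the last step, from 3.92 and 3.62 CPM to 6.59 and 9.09 CPM, with a log2 fold change of 1.92 (SE 0.31, adjusted p = 2.31e-05, edgeR) and a call in each cluster alone. Together with ORR1A2_LTR, it is one of the 2 rows called higher in this step whose CPM also lay above the round class in both mice.

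**Figure D4:**
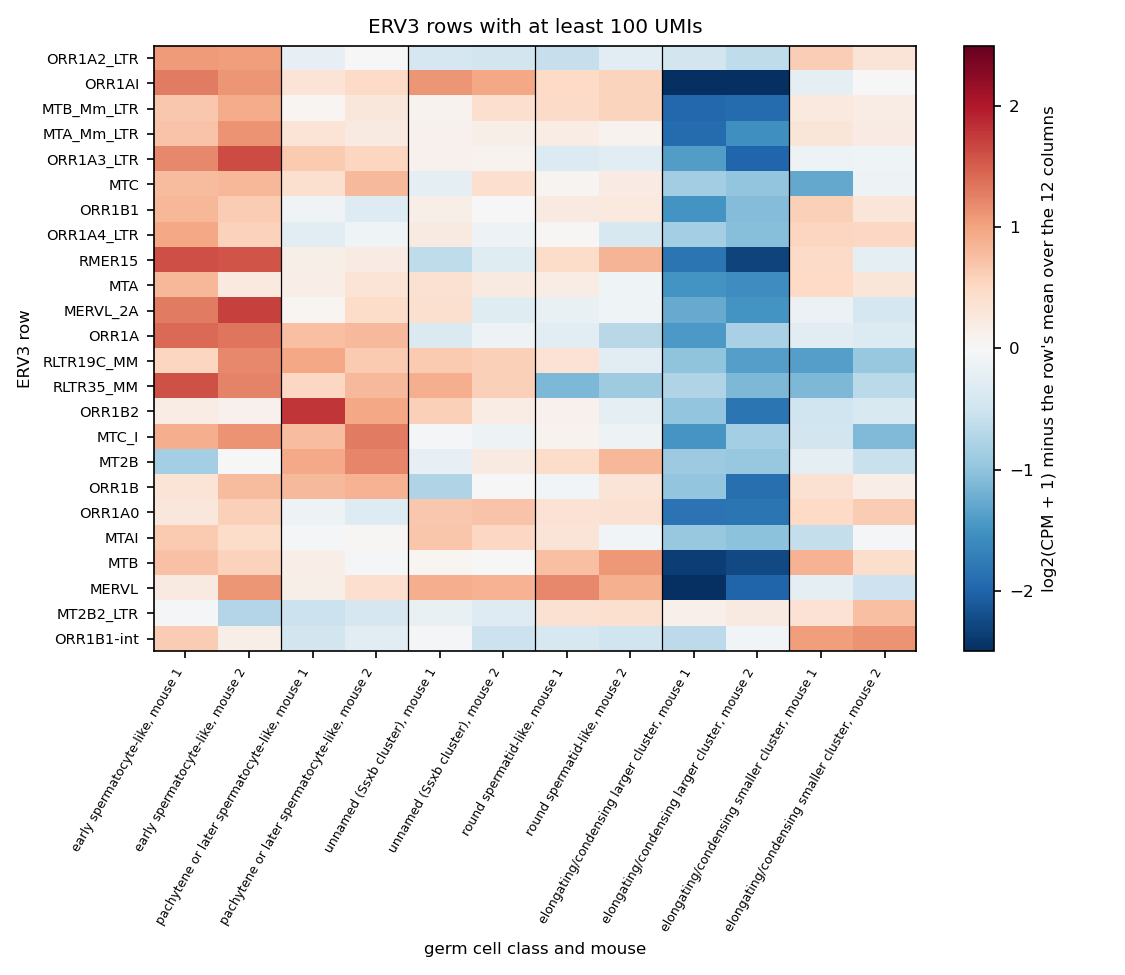
Log2(CPM + 1) of the 24 ERV3 rows with at least 100 UMIs in each germ cell class of each mouse, relative to the mean of the row over the 12 columns. Rows are grouped by the class in which they were highest, from the early class at the top, where ORR1A2_LTR has 163.1 and 160.6 CPM, to the smaller elongating cluster at the bottom. The larger elongating cluster is blue for nearly all rows. It is drawn before the smaller one, which is not an order of stages.

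Among the MT rows, MTB_Mm_LTR and MTB rose from the pachytene to the round class. MTB_Mm_LTR went from 25.9 and 30.6 CPM to 35.0 and 37.4 CPM (log2 fold change 0.68, adjusted p = 1.64e-03, edgeR). Its first-step log2 fold change of -0.40 was called with RLE scaling and DESeq2 (adjusted p = 0.00909 and 0.0173) and not otherwise (0.0927, edgeR). MTB went from 9.58 and 8.32 CPM to 14.98 and 19.1 CPM, a rise of 1.24 (SE 0.21, adjusted p = 2.20e-05). For each of these rows, the round values of both mice lay above both pachytene values. Within the elongating class, MTB had 0.852 and 0.975 CPM in the larger and 16.3 and 11.9 CPM in the smaller cluster. Its fall in the last step was just past the threshold over the whole class (log2 fold change -0.56, adjusted p = 0.0496, edgeR), was not called with RLE scaling (adjusted p = 0.108), DESeq2 (0.223), without doublets (0.0512) or with the unnamed cluster left out (0.0542) or counted as round (0.662), and was seen in the larger cluster (log2 fold change -3.11, against 0.20 in the smaller).

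MTA_Mm_LTR had 30.2 and 40.5 CPM in the early, 22.98 and 21.1 CPM in the pachytene and 20.5 and 19.2 CPM in the round class. It was called in none of the 3 steps, though the first of them passed with RLE scaling (adjusted p = 0.00605, edgeR), DESeq2 (0.0107) and a block for the mouse (0.0319). Its first-step log2 fold change was 0.01 in mouse 1 and -0.75 in mouse 2. In the last step it was lower in the larger cluster (log2 fold change -0.95, adjusted p = 0.00608, edgeR) and higher in the smaller (0.64, adjusted p = 0.0172). MTAI, the internal part, had its highest values, 22.5 and 19.8 CPM, in the unnamed cluster and 21.99 and 19.0 CPM in the early class. Its second-step log2 fold change of 0.45 just missed the threshold (adjusted p = 0.0520, edgeR). It was called with RLE scaling (adjusted p = 0.00517, edgeR), DESeq2 (0.0116), a block for the mouse (0.0228), the larger elongating cluster alone (0.0399) and the unnamed cluster counted as round (0.00344). MTC, with 14.4 and 19.5 CPM in the pachytene class, was called in no step. Its internal row MTC_I fell by 0.90 from the pachytene class, where it had 9.10 and 13.7 CPM, to the round class, where it had 5.30 and 4.44 CPM (adjusted p = 5.69e-03, edgeR, and 0.105 with DESeq2).

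The row MERVL carries the name of the retrovirus itself, and its name does not say which part it holds. No row for the MT2 LTR named MT2_Mm was among the 129 ERV3 rows. MERVL was highest in the round class of mouse 1, with 17.3 CPM, and in the early class of mouse 2, with 16.1 CPM. In the early class of mouse 1 it had 8.25 CPM, from 9 UMIs. In the pachytene class it had 7.85 and 9.66 CPM, in the unnamed cluster 14.0 and 13.5 CPM, in round 17.3 and 13.8 CPM and in the elongating class 2.14 and 2.69 CPM. The pachytene and round values did not overlap, and neither did the round and the elongating values. It rose in the second step by 1.139 (SE 0.24, adjusted p = 2.70e-04, edgeR) and then fell in the last by 1.80 (SE 0.32, adjusted p = 6.08e-05), and the fall was called in each cluster alone. In the larger cluster, it had 0 and 0.975 CPM. The first step was not called (adjusted p = 0.373).

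Rows of this family went different ways. MERVL_2A fell in the first step, from 8.25 and 11.1 CPM to 2.87 and 4.16 CPM (log2 fold change -1.27, SE 0.38, adjusted p = 8.10e-03, edgeR). MT2B rose in the same step, from 1.83 and 4.13 CPM to 8.81 and 10.9 CPM (log2 fold change 1.79, SE 0.41, adjusted p = 1.03e-03). The early values of this row rest on few UMIs, above all in mouse 1. Its last-step log2 fold change of -0.85 was close to the threshold (adjusted p = 0.0546, edgeR) and was called without the filter on low counts (0.0222), with a block for the mouse (0.0338) and with the unnamed cluster left out (0.0488). MT2B2_LTR rose in both later steps. It had 9.16 and 5.37 CPM in the early, 6.22 and 6.84 CPM in the pachytene, 12.7 and 12.8 CPM in the round and 11.2 and 14.0 CPM in the elongating class. The log2 fold changes were 1.28 (SE 0.23, adjusted p = 3.85e-05, edgeR) and 0.85 (SE 0.22, adjusted p = 2.86e-03), but on the CPM scale the last 2 classes overlapped. With 10.5 and 11.4 CPM in the larger elongating cluster, it was the row with the most UMIs there after ORR1A2_LTR.

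Among the rows outside these families, RMER15 fell in the first step, from 19.2 and 18.6 CPM to 6.32 and 6.57 CPM (log2 fold change -1.27, SE 0.28, adjusted p = 7.88e-04, edgeR). It rose to 8.06 and 10.9 CPM in the round class (adjusted p = 4.26e-03, and 0.570 with the unnamed cluster counted as round) and fell to 3.56 and 2.36 CPM (adjusted p = 0.0296, edgeR). This last fall was not called with RLE scaling (adjusted p = 0.0610, edgeR), DESeq2 (0.131), the smaller elongating cluster alone (0.786) or the unnamed cluster counted as round (0.460). RLTR35_MM had 5.50 and 4.13 CPM in the early and 2.11 and 2.82 CPM in the pachytene class, and 1 UMI in the whole round class against 43 in the pachytene class. The ratio of the CPM was 0.0400 (interval 0.000989 to 0.235), and the fall was called (adjusted p = 1.48e-04, edgeR), but not with the unnamed cluster, which had 3.07 and 2.29 CPM, counted as round (adjusted p = 0.296). RLTR19C_MM, with 2 UMIs in the elongating and 17 in the round class, had a ratio of 0.106 (interval 0.0119 to 0.447) and fell (adjusted p = 0.0303, edgeR, and 0.0992 with DESeq2). It was called in neither cluster of the class alone.

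A further 3 called rows had fewer than 100 UMIs and are named because they were called, after their values had been seen. RLTR19A_MM had 7.33 and 11.1 CPM in the early class and 1.63 and 2.01 CPM in the pachytene class, and fell in the first step by 2.15 (SE 0.48, adjusted p = 8.67e-04, edgeR). RLTR19B_MM went from 7.33 and 9.50 CPM to 0.766 and 1.07 CPM, a fall of 2.97 (SE 0.52, adjusted p = 8.13e-05). RLTR19B_MM also fell in the second step (1 UMI against 16, adjusted p = 0.0368, edgeR, but 0.0599 with RLE scaling and 0.118 with DESeq2), and RLTR33_MM rose in it, from 1.05 and 0.939 CPM to 2.30 and 2.14 CPM (adjusted p = 0.0201).

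An ordering of the germ cells by diffusion pseudotime, built without the repeat rows and cut into 10 bins of equal cell number, resolved these courses further. Summed ERV3 CPM went from 524.5 and 547.1 in the first bin to 385.7 and 385.5 in the second, stayed between 311.8 and 383.5 from the third to the eighth, and reached 113.0 and 112.2 in the last. The ninth bin had 151.4 and 179.9 CPM. Of the cells of the first bin, 64.6% were of the early class. The elongating class made up 78.7% of the cells of the eighth bin and all of the ninth and the last, so the sum fell within this class. The share of its 2 clusters in each bin was not counted. ORR1A2_LTR had a second maximum of 99.5 and 85.1 CPM in the eighth bin, where most cells belonged to the elongating class, and 58.2 and 40.5 CPM in the last bin. ORR1A0 and ORR1AI had their highest values among the bins in bins 4 and 5, which held only cells of the unnamed cluster, with the mice differing in which of them was highest for ORR1AI. MERVL was highest in the sixth bin, with 19.5 and 16.1 CPM, and had 0 UMIs in both mice in the last. MTB was highest in the seventh, with 18.6 and 22.6 CPM.

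**Figure D5:**
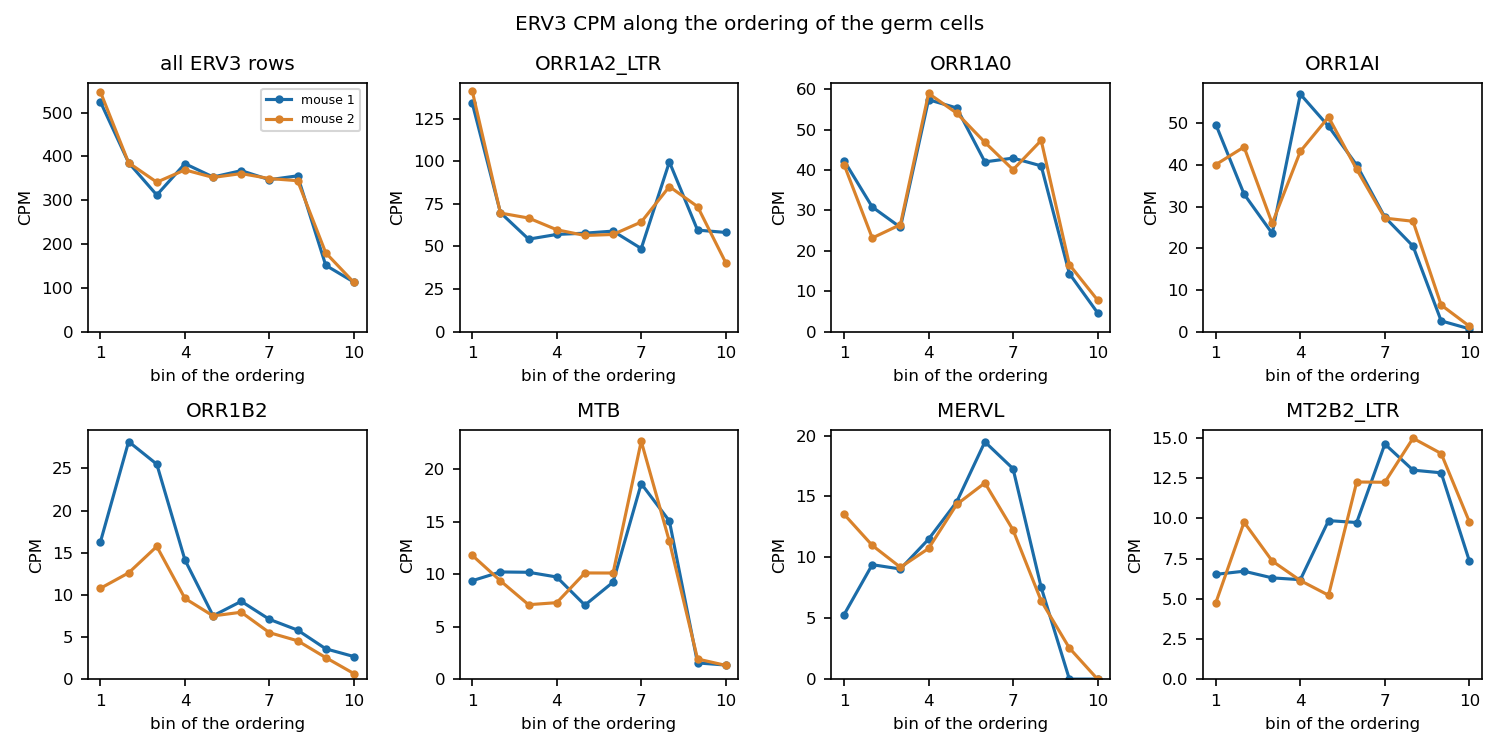
CPM of all ERV3 rows and of 7 single rows along 10 bins of an ordering of the germ cells, for each mouse. In bin 1, 64.6% of the cells were of the early class, and in bin 10 all were of the elongating class. Maxima fall in different bins, for example in bin 1 for ORR1A2_LTR, bin 6 for MERVL and bin 7 for MTB.

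Over all cells, both mice gave much the same values. Of the 24 rows with at least 100 UMIs, 21 differed by less than 1.2-fold in CPM over all cells. The intervals of 5 ratios left out 1. Within the classes, 8 of 109 row and class pairs had such an interval, without adjustment for their number. Among these 24 rows, the one that differed most was ORR1B2, with 15.05 CPM in mouse 1 and 8.42 CPM in mouse 2, a ratio of mouse 2 to mouse 1 of 0.559 (interval 0.477 to 0.655). In the pachytene class, the excess in mouse 1 was 1.80-fold (interval 1.44 to 2.27), while in the early class the mice had 8.25 and 7.85 CPM. With 1 animal on each side, this compares 2 libraries and not 2 groups of mice.

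The small clusters gave single values with wide intervals. Sertoli-like cells had 826.9 CPM in 6 cells of mouse 1 (interval 631.0 to 1064) and 818.1 CPM in 1 cell of mouse 2 (392.3 to 1505). Spermatogonium-like cells had 373.6 and 546.0 CPM, from 8 and 24 UMIs, and Leydig-like cells 200.2 and 319.2 CPM, from 2 and 13 UMIs. The Sertoli-like value of mouse 1 lay above those of the 4 named classes tested, with an interval that overlapped that of the early class.

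Genes whose products keep ERV3 elements silent in embryonic stem cells, or are linked to that silencing, were listed to set beside the elements. Of 20 listed genes, 19 were tested. They were among the gene rows that built the clusters, so their p-values are not independent of the classes compared. In the first step 3 rose and 11 fell, in the second none rose and 16 fell, and in the third 1 rose and 6 fell, against the shares of all rows given above. With RLE scaling, 1 rose and 12 fell in the first step. With the unnamed cluster counted as round, 13 fell in the second and 12 in the third. Both settings also moved the bulk of all rows. With RLE, rises were 40.9% of all calls in the first step, against 51.6% in the main fit. With the unnamed cluster as round, the third step had 9705 calls over all rows, 43.2% of them rises. The main fit had 7952 calls there, 50.9% of them rises. Trim28, the corepressor that recruits silencing enzymes to retroviral sequences, had 290.4 and 296.9 CPM in the early, 301.6 and 323.6 CPM in the pachytene, 88.5 and 106.1 CPM in the round and 35.4 and 41.4 CPM in the elongating class. It fell by 1.37 in the second step (adjusted p = 2.21e-08, edgeR), and a first-step change of 0.38 (adjusted p = 0.0293) was not called with RLE scaling (adjusted p = 0.387). Setdb1, a histone H3 lysine methyltransferase that acts with Trim28, had 68.7 and 50.8 CPM, 25.1 and 25.4 CPM and 1.61 and 3.29 CPM in the first 3 of these classes and fell in both steps, in the second by 2.97 (adjusted p = 2.68e-09, edgeR). Zfp42, a zinc finger protein linked to the repression of MERVL, had 54.97 and 49.97 CPM in the early, 29.0 and 29.5 CPM in the pachytene, 3.23 and 4.44 CPM in the round and 1.43 and 1.01 CPM in the elongating class. It fell in the first step by 0.55 (adjusted p = 0.0179, edgeR, and 0.0917 without the filter on low counts) and in the second by 2.58 (adjusted p = 2.07e-09), and its change of -0.82 in the third was not called (adjusted p = 0.0882).

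A second list held activators of MERVL and genes of the 2-cell embryo, such as Dux and the Zscan4 genes. Of its 24 genes, 23 were in the matrix and 2 had a UMI. These were Dppa4 and Sp110. Only Dppa4, also one of the gene rows behind the clusters, passed the filter on low counts. It had 19.2 and 4.96 CPM in the early class of mouse 1 and mouse 2, and at most 0.683 CPM in the other germ cell classes and the unnamed cluster, and fell in the first step, from 33 UMIs to 1 (adjusted p = 1.93e-06, edgeR). Genes in this list have near-identical copies, and reads that map to several of them may not have been counted.

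Across all 2552 cells, the genes whose log expression was most like that of the 5 ERV3 rows with the most UMIs were given by Pearson's r, as a description in which points share the library, depth and cell class. For ORR1A2_LTR, Elfn2 was first, with r = 0.35, followed by Gm21269 (0.34) and 4933412L11Rik (0.33). For ORR1A0, ORR1AI, MTB_Mm_LTR and MTA_Mm_LTR, the nuclear long non-coding RNA Malat1 was first, with r of 0.39, 0.40, 0.36 and 0.29. All of these coefficients are weak.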

How the data were processed

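Single-cell RNA was measured in testis cells of 2 mice. Per the study's methods, the authors demultiplexed and counted reads with Cell Ranger 2.0.0 (bcl2fastq 2.17.1.14) against a repeat-masked GRCm38 (mm10) genome to which RepBase consensus sequences were added as chromosomes, downsampled reads to an equal mean number per cell in both mice and kept called cells. The deposited matrix holds whole UMI counts per row and cell. A UMI on a consensus therefore cannot be told apart between a transcript of the element itself and a gene transcript that contains a copy. Consensus sequences were not used here.

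All 2552 cells were kept, and no barcode was shared between the mice. Gene rows with a UMI (27280) were scaled to the median depth, transformed as log2(1 + x) and standardised, and K-means (K = 9, seed 42, 10 restarts) was run on 10 principal components. A class name needed at least 3 markers at 1.5 times the CPM of all cells. Doublets were called in 25 cells and kept. The members and lists were chosen with earlier results of these data known.

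UMIs were summed per mouse and class (5 classes, 10 sums) and tested with edgeR 4.0.16 (quasi-likelihood, TMM, filterByExpr) in R 4.3.3, with DESeq2 1.42.0 as an alternative. The SE is the log2 fold change divided by the square root of F. The procedure was also run on simulated counts in which few rows were changed, all of them raised in the round class. In the real steps 48.3% to 74.3% of all rows were called, so the simulation does not gauge the scaling or the error rate here. Named rows are the 15 with the most UMIs, the 5 called rows with the largest fold change per step among those with at least 100 UMIs and 1 direction in both mice, and all MERVL rows. Sums of the same number come from the same animal, and their deviations correlated with r of 0.0296 to 0.202 over 10 pairs, so a block for the mouse was an alternative. Other alternatives were RLE scaling, no filter, clusters from all rows, K = 10, another seed, no doublets, the unnamed cluster left out, the mean over cells and the sum without its highest row. Separate elongating or condensing clusters, the unnamed cluster counted with round, and TMM scaling of the sums were added after seeing the data. Python 3.11.15 with scikit-learn 1.9.0 and scanpy 1.11.5 was used for the rest.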

Additional observations from a re-analysis of the deposited data

How the results depend on the processing

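The counts of ERV3 rows called from early to pachytene or later stayed within 1.5 times those of the main fit under every alternative run. Falls were both gained and lost, as RLE and DESeq2 added those of ORR1A0, MTB_Mm_LTR and MTA_Mm_LTR. Without the filter on low counts, the falls of ORR1AI, ORR1B1 and ORR1A4_LTR were not called. RLE scaling also moved the median of all rows in this step to -0.19 and the share of rises among all calls from 51.6% to 40.9%. DESeq2 moved both alike, to -0.23 and 40.7%, so a call gained with RLE and DESeq2 does not rest on 2 separate scalings. In the second step, DESeq2 left 3 falls. In the last step, falls numbered 3 with RLE, 2 with DESeq2, 8 with the larger and 1 with the smaller elongating or condensing cluster, which gave 9 rises. The calls over all rows moved too. In this step they numbered 7952 in the main fit, 7829 with RLE, 7126 with DESeq2 and 8201 with the larger cluster. Rises made up 50.9%, 55.6%, 56.8% and 45.2% of them. Such shares were not worked out for the smaller cluster or the block for the mouse. The block for the mouse gave 2 rises and 11 falls, 10 and 7, and 4 and 6 in the 3 steps. It added the first-step falls of ORR1A0 and MTA_Mm_LTR, the second-step rise of MTAI and the last-step fall of MT2B to the calls of named rows, and took none away.

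The log2 ratios of the summed CPM became -0.594, -0.0184 and -0.901 without ORR1A2_LTR, -0.74, -0.13 and -0.78 as means over cells, and -0.43, 0.24 and 0.28 with TMM scaling, which turned the latter 2. With the unnamed cluster counted as round, the latter 2 were -0.0377 and -0.620. The larger cluster alone gave -1.47 for the last and the smaller 0.11, a reversal. In each mouse alone they ran from -0.731 to -0.721, from -0.0841 to -0.0593 and from -0.608 to -0.564. Over all cells, 271.3 and 285.1 CPM remained without ORR1A2_LTR, and the mean over cells of mouse 2 was 352.8 CPM. Called log2 fold changes of single rows, or ones called under the alternative, turned for ORR1A0 (-1.21) and MTA_Mm_LTR (-0.95) with the larger cluster, MTB (0.20) with the smaller and RLTR35_MM (-2.29) with the unnamed cluster counted as round, all in the last step. Of 792 tested comparisons of a named row with an alternative, 714 kept direction and side of the threshold, 24 passed it and 25 lost it. In the other 29 the direction turned, which includes these 4 and 25 in which the change was called on neither side, among them ORR1B1 (-0.61), ORR1A3_LTR (-0.41) and ORR1A (-0.13) with the larger and MTB_Mm_LTR (0.20) and MERVL_2A (0.27) with the smaller cluster in the last step. In single mice, where no test is possible, 11 of 132 log2 ratios turned, none of them of a called change. The causes were not tested. The counts of called rows have no value for a single mouse, since no residual degrees of freedom remain. Depth limited the 19 rows with a UMI that were not tested, and 2 mice leave the spread between animals poorly known.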
